A study of Mus musculus with 13 samples.

Results

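Loss of the kinase CKIα (casein kinase Iα, gene Csnk1a1) from the mouse gut was profiled in samples that the labels call enterocytes. Enterocytes are the absorptive cells of the intestinal lining. The p53 and p21 genes of the animals had not been knocked out. The arrays were chosen by their titles: 2 CKIα KO arrays (spelt CKIaplha KO in the labels) and 2 CKIα Het arrays, 4 of the 13 arrays of the series. CKIα KO stands for the homozygous and CKIα Het for the heterozygous gut-specific knockout of CKI alpha, both on a 129/SVJ background. The CKIα Het animals thus carry 1 knocked-out allele, and no array of unmodified gut was analysed here. The labels call the 2 arrays of a group biological replicates and give, in the fields used here, no Cre driver, age or sex. Of the other arrays, 8 hold the same CKIα genotypes crossed with p53 KO or p21 KO mice, and these entered the fit described here. The last array has labels that disagree, its title naming a CKIα KO/p53 KO and its genotype a CKI KO, and it entered no comparison.

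CKIα is the priming kinase of the destruction complex. It phosphorylates β-catenin so that GSK3 can mark it further for degradation, and without this step β-catenin builds up and switches on Wnt target genes, which drive stem cell renewal at the base of the intestinal crypt. CKIα also acts together with Mdm4 to hold p53 in check. p53 is a transcription factor that activates genes of cell cycle arrest, DNA repair and cell death, among them the gene for the cell cycle inhibitor p21. The comparison therefore bears on 2 pathways at once, Wnt and p53, in animals whose p53 and p21 genes had not been knocked out.

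The values are log2 probe set intensities, and each array's median over all probe sets lay between 4.96 and 5.12. Xist, the RNA that silences an X chromosome, read 3.94 and 9.36 on CKIα KO arrays 1 and 2 and 3.49 and 9.56 on CKIα Het arrays 1 and 2. The Y-linked gene Kdm5d read 7.5 and 3.72 on the CKIα KO arrays and 7.76 and 3.77 on the CKIα Het arrays. Array 1 thus had the Y-linked transcript and array 2 had Xist, and the same held in all 6 groups of the fit, so a difference taken within a number compares arrays with the same pattern. The probe set of Csnk1a1 read 10.55 and 10.65 on the CKIα KO arrays and 10.61 and 10.69 on the CKIα Het arrays. It reports the gene as a whole and not the deleted stretch alone, so it checks no genotype. Trp53 has no probe set with its own symbol here, and Cdkn1a, the p21 gene, shares its probe set with another transcript and is not given. Enterocyte genes were bright on all 4 arrays, with Fabp1, which binds fatty acids, at 11.75 and 12.32 on the CKIα KO arrays and 11.91 and 11.75 on the CKIα Het arrays. The lymphocyte gene Cd3g was bright as well, at 10.03 and 9.31 on the CKIα KO arrays and 10.21 and 10.13 on the CKIα Het arrays. All 16 goblet cell markers read above the array median on all 4 arrays, so the samples were not absorptive cells alone. The endothelial gene Pecam1 read between 4.46 and 4.65, below the array medians. The CKIα KO arrays differed more from each other than the CKIα Het arrays did: 349 of 16721 genes were over 2-fold apart between the CKIα KO arrays, against 138 between the CKIα Het arrays.

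By p-value, the response with p53 and p21 intact was headed by a hydrogen peroxide generator of the gut surface. Duox2, the dual oxidase that makes hydrogen peroxide at the luminal face of the epithelium, and Duoxa2, the factor that carries it to the membrane, were 14.6-fold and 16.2-fold brighter on the CKIα KO arrays than on the CKIα Het arrays. The 2 genes stand head to head on chromosome 2, with start sites 673 bases apart, in a cluster of 4 neighbouring genes with Duoxa1 and Duox1. Their windows of 250 bases before to 50 after the start are shown because these genes had the smallest p-values of the comparison and start side by side. The windows are chr2:122298178-122298477 for Duox2 on the minus strand and chr2:122298650-122298949 for Duoxa2 on the plus strand, both from RefSeq on GRCm38.p6. Capitals mark a CCAAT box (CCAAT, here read on the opposite strand) in the Duox2 window. In the Duoxa2 window they mark, in this order, an AP-1 motif (TGANTCA), a GC box (GGGCGG) on the opposite strand, another GC box on that strand and a TATA box (TATAAA).
Duox2: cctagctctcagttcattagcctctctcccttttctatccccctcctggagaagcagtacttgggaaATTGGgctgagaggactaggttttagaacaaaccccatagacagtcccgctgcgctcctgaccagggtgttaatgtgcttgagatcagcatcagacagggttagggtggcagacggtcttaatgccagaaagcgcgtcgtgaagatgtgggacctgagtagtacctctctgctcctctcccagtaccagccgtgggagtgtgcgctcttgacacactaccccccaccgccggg
Duoxa2: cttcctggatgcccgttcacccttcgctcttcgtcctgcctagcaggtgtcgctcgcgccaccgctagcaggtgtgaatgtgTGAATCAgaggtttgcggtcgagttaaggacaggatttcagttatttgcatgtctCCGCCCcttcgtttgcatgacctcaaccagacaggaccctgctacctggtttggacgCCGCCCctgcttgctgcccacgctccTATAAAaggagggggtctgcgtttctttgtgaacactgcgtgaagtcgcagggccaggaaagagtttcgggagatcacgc
Both strands were searched. Of all 32851 windows of this length, 13.6% held the TATA box, 7.81% the AP-1 motif, 35.7% the GC box and 37.4% the CCAAT box. Neither window held the letters of the TCF/LEF core (CTTTGA), present in 16% of windows, or the p53 response element decamer consensus, present in 8.36%. A match or its lack is a description of these letters only.

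Duoxa2 had log2 intensities of 9.74 and 9.52 on CKIα KO arrays 1 and 2, against 5.48 and 5.74 on CKIα Het arrays 1 and 2. Both CKIα KO arrays stood more than 3 log2 units above either CKIα Het array, and the groups did not overlap. The log2 difference was 4.02 ± 0.33 (SE of the fit, n = 2 each), a 16.2-fold difference with an adjusted p of 0.00381 in limma. Duox2 read 10.08 and 9.71 on the CKIα KO arrays, against 5.64 and 6.41 on the CKIα Het arrays. Its log2 difference was 3.87 ± 0.33, or 14.6-fold, with the same adjusted p of 0.00381. Both genes rose, and they were 2 of the 13 epithelial oxidase genes tested, in a comparison in which 0.0239% of all genes passed the test. The oxidase list was chosen with earlier results of these data known, so these shares are no test of the list. These are bulk samples, in which a change in the share of cells that carry a transcript cannot be told apart from a change in the RNA per cell. Standard errors and p-values use the replicate spread of all 6 groups of the series together. With CKIα Het array 1 left out, both genes had an adjusted p of 0.0653, and with CKIα KO array 2 left out both had 0.0577, while their log2 differences stayed between 3.49 and 4.13. A fit of the 4 arrays alone gave Duox2 an adjusted p of 0.134.

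The neighbouring pair of the cluster read at or below the array medians. Duox1, the other dual oxidase, read 3.90 and 3.52 on the CKIα KO arrays and 3.57 and 3.52 on the CKIα Het arrays. Duoxa1, its maturation factor, read 4.80 and 4.87 on the CKIα KO arrays and 5.0 and 4.86 on the CKIα Het arrays. For both genes the groups overlapped. Nox1, the NADPH oxidase of the intestinal epithelium, read 7.16 and 8.52 on the CKIα KO arrays and 4.66 and 4.85 on the CKIα Het arrays. That is a log2 difference of 3.09 ± 0.44 with an adjusted p of 0.0803, so Nox1 did not pass the threshold of 0.05 although its arrays lay far apart. Noxo1, the organiser subunit of the Nox1 complex, read 7.29 and 7.77 on the CKIα KO arrays and 6.71 and 6.77 on the CKIα Het arrays. Cyba, the membrane partner of the Nox catalytic subunits, read 7.99 and 8.88 on the CKIα KO arrays and 7.57 and 7.97 on the CKIα Het arrays. Of the 13 oxidase genes, 7, among them Duox2 and Duoxa2, had both CKIα KO arrays above both CKIα Het arrays and 0 had both below. Over all genes tested, 22.3% were higher and 16.8% lower in this sense. The median log2 difference of the list was 0.27, against 0.02 over all genes.

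**Figure D1:**
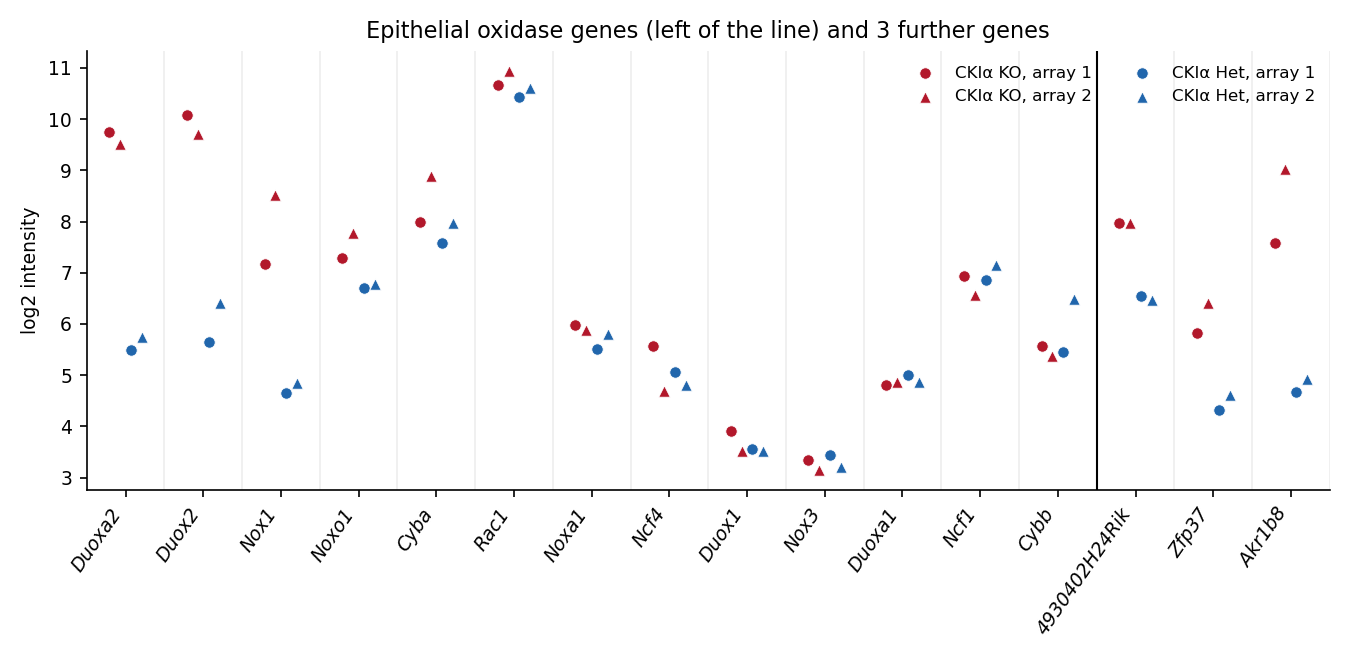
Log2 intensity of each tested epithelial oxidase gene and of 3 further genes on the 2 CKIα KO arrays (red) and the 2 CKIα Het arrays (blue); circles are array 1 and triangles array 2. Duoxa2 and Duox2 lie between 9.52 and 10.08 on the CKIα KO arrays and between 5.48 and 6.41 on the CKIα Het arrays, while the points of Duox1 and Duoxa1 overlap.

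In all, 4 of 16721 genes rose and 0 fell at an adjusted p under 0.05 in limma, while 1520 genes, 9.09%, had an unadjusted p under 0.05. Besides the oxidase pair, 4930402H24Rik, a transcript with a Riken clone name, read 7.97 on each CKIα KO array, against 6.54 and 6.47 on the CKIα Het arrays. It rose by a log2 difference of 1.47 ± 0.16 with an adjusted p of 0.0223, and its arrays of 1 group were closer to each other than those of any other called gene. With the replicate number, which follows the Xist and Kdm5d pattern, as a block in the fit, Duox2 and Duoxa2 kept their calls at an adjusted p of 0.00992, while 4930402H24Rik had 0.0584 and Zfp37 0.0626. Zfp37, a zinc finger protein gene, read 5.83 and 6.41 on the CKIα KO arrays, against 4.33 and 4.61 on the CKIα Het arrays. It rose by 1.65 ± 0.20 with an adjusted p of 0.0459, which passed 0.05 in 5 of 18 other settings. The count of called genes depended on single arrays. It was 0 higher and 0 lower without CKIα Het array 1 and the same without CKIα KO array 2, and 57 higher and 7 lower without CKIα KO array 1, with the lone array of the group then assumed to vary like the rest. Leaving out either CKIα KO/p21 KO array, which enters only the pooled spread, gave 43 higher and 41 lower. Leaving out either CKIα KO/p53 KO array gave 2 higher and 0 lower.

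Taken by array number, the sizes differed between the numbered pairs. Between the arrays numbered 2, 575 genes differed by more than 2-fold, 342 of them higher and 233 lower on the CKIα KO array. Between the arrays numbered 1, 292 differed by that much, 140 higher and 152 lower on the CKIα KO array. The differences of the pairs correlated with r = 0.397 across genes, which are not independent replicates. At more than 2-fold by group mean and with arrays that did not overlap, 156 genes were higher and 135 lower on the CKIα KO arrays.

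**Figure D2:**
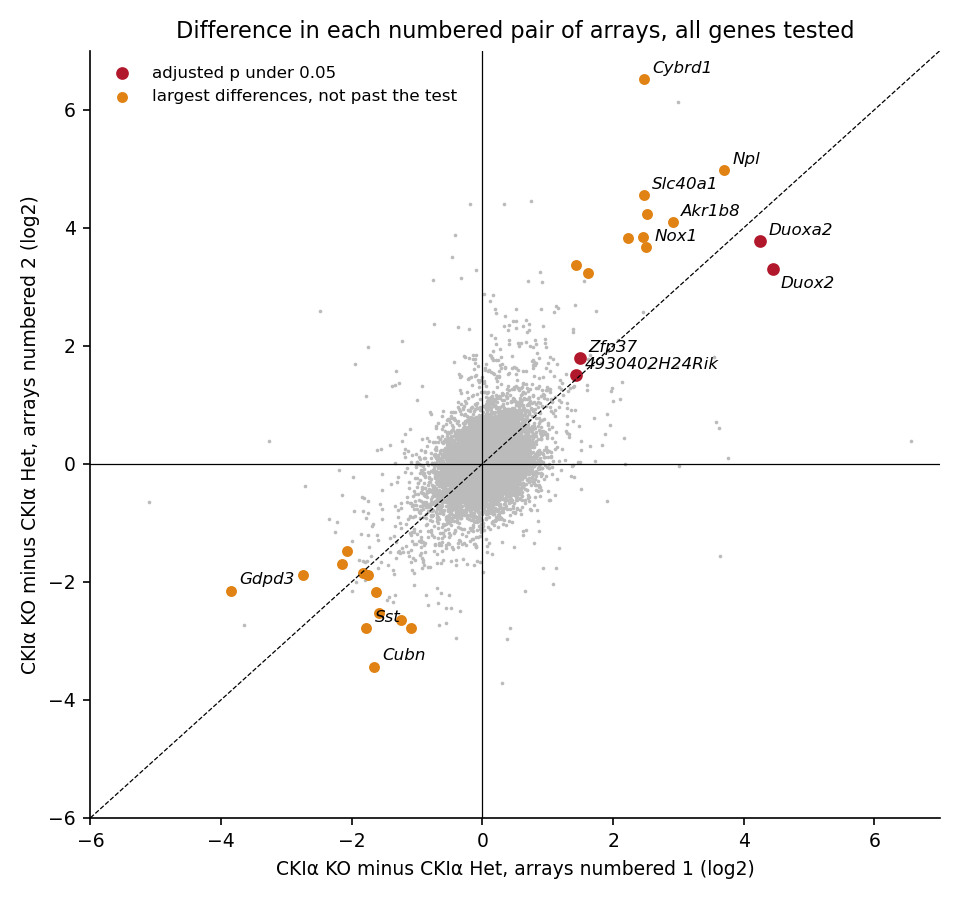
Log2 difference of CKIα KO minus CKIα Het between the arrays numbered 1 (horizontal axis) and between the arrays numbered 2 (vertical axis) for 16721 genes; red points passed the test, orange points are the genes with the largest differences that did not, and the dashed line marks equal differences. Of the 4 red points, Duox2 lies below the dashed line, at 4.44 and 3.30, while Cybrd1 stands above it, at 2.48 and 6.52.

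Apart from Duox2 and Duoxa2, none of the 12 genes with the largest positive differences by the naming rule passed the test, and their roles were varied. Cybrd1, the ferric reductase that prepares dietary iron for uptake, read 7.72 and 11.81 on the CKIα KO arrays, against 5.24 and 5.29 on the CKIα Het arrays. The group difference of 4.50 ± 1.01 was the largest named here, and CKIα KO array 2 was far above array 1. Slc40a1, which encodes ferroportin, the iron exporter of the basal membrane, read 8.07 and 10.68 on the CKIα KO arrays, against 5.60 and 6.12 on the CKIα Het arrays. S100g, the calcium-binding protein calbindin-D9k of absorptive cells, read 6.56 and 8.39 on the CKIα KO arrays, against 4.93 and 5.16 on the CKIα Het arrays. All 3 genes had the brighter CKIα KO signal on array 2. Npl, the lyase that splits sialic acid, read 8.39 and 9.65 on the CKIα KO arrays, against 4.69 and 4.68 on the CKIα Het arrays, a log2 difference of 4.34 ± 0.91. Mboat1, an acyltransferase of membrane phospholipids, read 7.99 and 9.63 on the CKIα KO arrays, against 5.53 and 5.79 on the CKIα Het arrays. None of these 5 genes passed the test; their adjusted p lay at 0.188 for Cybrd1, 0.169 for Slc40a1, 0.263 for S100g, 0.167 for Npl and 0.0972 for Mboat1. The wider iron list stayed close to the background. Of 12 iron uptake and export genes, 4 were higher and 2 lower with arrays apart (33.3% and 16.7%, against 22.3% and 16.8% over all genes) and the median log2 difference was 0.11, with Slc39a14, a zinc and iron importer, at 0.97 ± 0.33.

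Ly6d and Gml, a pair of small surface proteins of the Ly6 family, were also among the largest. Ly6d read 7.97 and 9.31 on the CKIα KO arrays, against 5.45 and 5.08 on the CKIα Het arrays. Gml read 6.10 and 7.67 on the CKIα KO arrays, against 3.88 and 3.84 on the CKIα Het arrays. Capg, which caps actin filaments, read 6.82 and 8.75 on the CKIα KO arrays and 5.39 on each CKIα Het array. For these 3 genes the groups were apart and the adjusted p was 0.286, 0.129 and 0.257, in that order. In the list of genes of fetal-like and regenerating epithelium, to which Ly6d belongs, 6 of 16 tested members (37.5%) were higher and 2 (12.5%) lower with arrays apart, against 22.3% and 16.8% over all genes. The list's median log2 difference was 0.44, at 0.026 between the arrays numbered 1 and 0.74 between those numbered 2. The growth factor gene Ereg, another member, read 6.48 and 6.83 on the CKIα KO arrays and 5.55 and 5.36 on the CKIα Het arrays.

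Among genes of antioxidant defence, several of glutathione and aldehyde reduction lay higher, with none past the test. Akr1b8, an aldo-keto reductase, read 7.59 and 9.02 on the CKIα KO arrays, against 4.68 and 4.93 on the CKIα Het arrays. Its log2 difference of 3.50 ± 0.45 had an adjusted p of 0.0516, just short of the threshold, and 0.0084 without CKIα KO array 1. Gpx2, the glutathione peroxidase of the gut epithelium, read 10.86 and 11.57 on the CKIα KO arrays, against 8.79 and 9.48 on the CKIα Het arrays. Its differences within the pairs were 2.07 and 2.09, nearly equal. Gsr, glutathione reductase, read 10.22 and 10.65 on the CKIα KO arrays, against 9.24 and 9.34 on the CKIα Het arrays. Akr1b10, a second aldo-keto reductase, read 6.30 and 6.92 on the CKIα KO arrays and 5.10 and 5.65 on the CKIα Het arrays. Osgin1, an oxidative stress response gene, ran the other way, at 7.18 and 7.05 on the CKIα KO arrays and 7.88 and 7.97 on the CKIα Het arrays. Apart from Akr1b8 these had adjusted p between 0.133 for Gpx2 and 0.330 for Osgin1. Of 14 NRF2-type genes tested, 6 (42.9%) were higher and 2 (14.3%) lower with arrays apart, against 22.3% and 16.8% over all genes. The list's median was 0.10, at -0.051 between the arrays numbered 1 and 0.32 between those numbered 2.

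Counted by arrays apart, cholesterol and fatty acid synthesis was the list with the largest share of members on 1 side. With arrays apart, 15 of 19 tested members (78.9%) were higher on the CKIα KO arrays and 2 (10.5%) were lower. Over all genes the shares were 22.3% and 16.8%. The list's median log2 difference was 0.70. The median was 0.33 between the arrays numbered 1 and 0.92 between those numbered 2. None of the members passed the test over all genes, and at an unadjusted p under 0.05 there were 10 higher and 1 lower. Sqle, squalene epoxidase of the sterol pathway, read 8.93 and 9.17 on the CKIα KO arrays, against 7.65 and 7.66 on the CKIα Het arrays. Lss, which closes the sterol rings, read 7.13 and 7.33 on the CKIα KO arrays, against 6.22 and 6.36 on the CKIα Het arrays. Both sterol genes thus lay about 1 log2 unit or more apart, with little spread within a group. Fasn, fatty acid synthase, read 8.02 and 8.37 on the CKIα KO arrays, against 7.0 and 7.10 on the CKIα Het arrays. Acaca, the carboxylase that commits carbon to fatty acids, read 7.40 and 7.47 on the CKIα KO arrays, against 6.72 and 6.55 on the CKIα Het arrays. Scd2, a desaturase, read 9.36 and 10.21 on the CKIα KO arrays and 7.98 on each CKIα Het array. The adjusted p of these 5 genes lay between 0.147 for Scd2 and 0.263 for Lss.

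Hmgcs1, the synthase at the entry of the sterol pathway, is given for its promoter and was picked after its values were seen. It read 10.03 and 10.34 on the CKIα KO arrays and 9.72 and 9.67 on the CKIα Het arrays, a log2 difference of 0.49 ± 0.18 with an adjusted p of 0.448. Among the 14 synthesis genes with a RefSeq window, its window alone held a sterol regulatory element (TCACNCCAC, either strand), a motif found in 1.24% of all windows. The window, chr13:119690101-119690400 on the plus strand of GRCm38.p6, is printed to show where the element lies, in capitals.
Hmgcs1: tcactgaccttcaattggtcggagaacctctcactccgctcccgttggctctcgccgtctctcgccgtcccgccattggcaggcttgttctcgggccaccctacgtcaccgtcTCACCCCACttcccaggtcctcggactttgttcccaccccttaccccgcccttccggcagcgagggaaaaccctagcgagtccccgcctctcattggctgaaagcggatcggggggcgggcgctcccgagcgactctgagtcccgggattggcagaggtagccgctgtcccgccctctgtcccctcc
The same window also held the p53 decamer consensus, outside the capitals, as did those of Dhcr7 and Sc5d. That consensus was found in 8.36% of all windows.

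**Figure D3:**
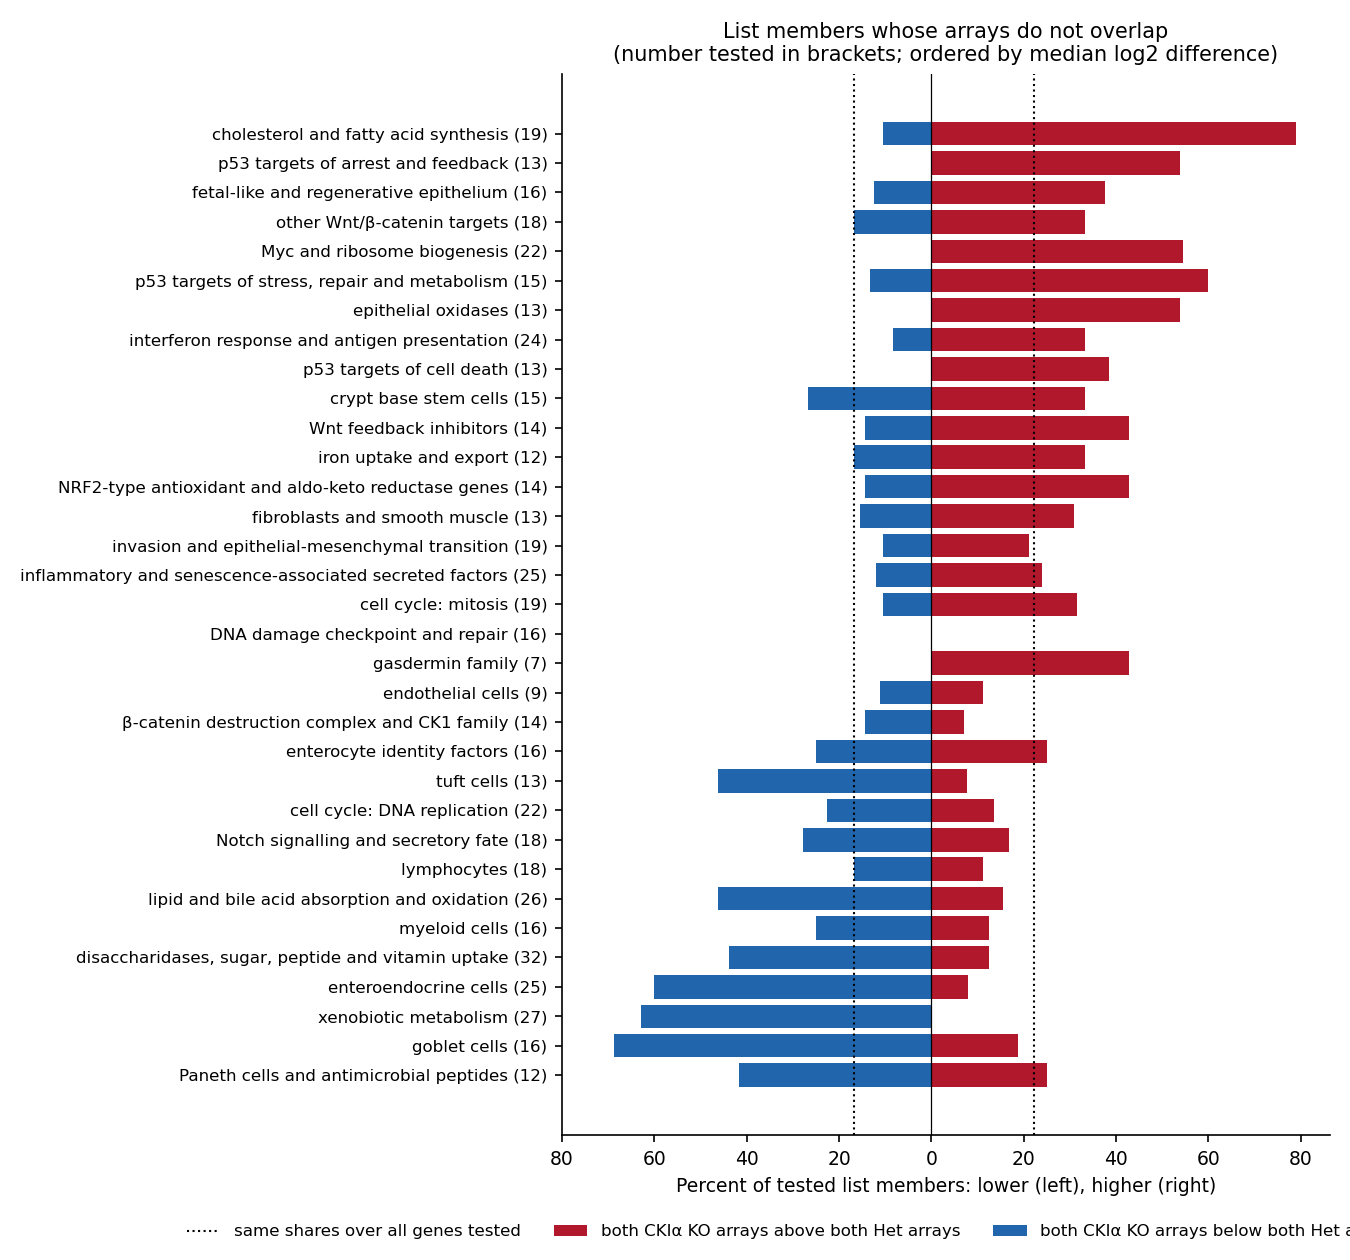
Percent of the tested members of each gene list whose CKIα KO arrays both lay above (red, to the right) or both below (blue, to the left) both CKIα Het arrays, ordered by the list's median log2 difference; dotted lines give the same shares over all genes, 22.3% higher and 16.8% lower. Cholesterol and fatty acid synthesis reached 78.9% higher, and goblet cell, xenobiotic metabolism and enteroendocrine genes 68.8%, 63% and 60% lower.

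Wnt target genes differed among themselves, and 0 of them passed the test. Axin2, the feedback scaffold of the destruction complex and a direct Wnt target, read 8.17 and 8.75 on the CKIα KO arrays, against 7.14 and 7.18 on the CKIα Het arrays. Its log2 difference was 1.30 ± 0.23 with an adjusted p of 0.106. Rnf43, the ligase that removes Wnt receptors, read 7.97 and 9.05 on the CKIα KO arrays, against 7.47 and 7.73 on the CKIα Het arrays. Notum, a secreted Wnt inhibitor, read 4.49 and 6.87 on the CKIα KO arrays and 4.86 and 4.55 on the CKIα Het arrays, so only CKIα KO array 2 lay above the CKIα Het arrays. Without that array its log2 difference was -0.22, against 0.98 with it. Among secreted antagonists, Sfrp1 read 4.54 and 4.23 on the CKIα KO arrays and 3.85 and 3.96 on the CKIα Het arrays, and Sfrp5 read 4.02 and 3.24 on the CKIα KO arrays and 4.79 and 4.04 on the CKIα Het arrays. Of the 14 feedback inhibitors tested, 6 (42.9%) were higher and 2 (14.3%) lower with arrays apart, against 22.3% and 16.8% over all genes. Only 5 of the 14, among them Axin2 and Rnf43, read above the array median on all 4 arrays. In limma 0 of the 14 passed the test, and 3 higher and 1 lower had an unadjusted p under 0.05. The list's median was 0.16.

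Other Wnt/β-catenin targets included growth and adhesion genes. Ccnd2, cyclin D2, read 10.95 and 12.20 on the CKIα KO arrays, against 10.15 and 10.10 on the CKIα Het arrays. Ccnd1, cyclin D1, read 8.72 and 9.17 on the CKIα KO arrays, against 7.43 and 8.14 on the CKIα Het arrays. Both cyclins lay more than 1 log2 unit higher by group mean, at 1.45 ± 0.32 and 1.16 ± 0.43, with adjusted p of 0.186 and 0.447. Cd44, a hyaluronan receptor of crypt cells, read 7.05 and 8.91 on the CKIα KO arrays, against 6.54 and 6.60 on the CKIα Het arrays. Lef1, a partner of β-catenin on DNA, read 5.13 and 6.05 on the CKIα KO arrays, against 4.73 and 4.53 on the CKIα Het arrays. Ephb3, which positions cells in the crypt, read 5.50 and 7.07 on the CKIα KO arrays, against 5.21 and 5.46 on the CKIα Het arrays. In each of these 3 genes array 2 was the brighter CKIα KO array by about 1 log2 unit or more. Lgr5, the receptor that marks crypt base stem cells, was lower, at 4.70 and 4.67 on the CKIα KO arrays against 5.39 and 5.43 on the CKIα Het arrays. Olfm4, another stem cell gene and a Notch target, read 9.53 and 9.45 on the CKIα KO arrays, against 11.24 and 11.02 on the CKIα Het arrays, a log2 difference of -1.63 ± 0.61. Of 18 tested targets in this list, 6 were higher and 3 lower with arrays apart (33.3% and 16.7%, against 22.3% and 16.8% over all genes). The median was 0.44, at -0.029 between the arrays numbered 1 and 0.82 between those numbered 2. Of the 15 tested crypt base markers, 5 (33.3%) were higher and 4 (26.7%) lower. These markers share Axin2 and Rnf43 with the feedback list, and members such as Sox9, Smoc2, Ascl2 and Tnfrsf19 with the list of other targets.

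The genes of the destruction complex and the CK1 family themselves differed little between the groups. Of 14 tested members, 1 (7.14%) was higher and 2 (14.3%) were lower with arrays apart, against 22.3% and 16.8% over all genes. The list's median log2 difference was -0.05. Amer1, a membrane scaffold of the complex, had the smallest p of the list, with 5.80 and 5.44 on the CKIα KO arrays and 6.11 and 6.26 on the CKIα Het arrays. Its adjusted p was 0.384.

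Targets of p53 with arrays apart were mostly on the higher side, beside 22.3% higher and 16.8% lower over all genes. Of the 13 tested targets of arrest and feedback, 7 (53.8%) were higher and 0 lower with arrays apart, with a median log2 difference of 0.61. Of the 13 targets of cell death, 5 (38.5%) were higher and 0 lower, with a median of 0.23. Of the 15 targets of stress, repair and metabolism, 9 (60%) were higher and 2 (13.3%) lower, with a median of 0.33. Between the arrays numbered 1 the medians were 0.28, 0.24 and 0.065, in the same order of lists, and between those numbered 2 they were 0.61, 0.052 and 0.51. None of these targets passed the test over all genes; at an unadjusted p under 0.05 the lists had 7, 2 and 5 higher members and 0, 0 and 1 lower, in the same order. Ccng1, cyclin G1, read 10.63 and 11.44 on the CKIα KO arrays, against 9.55 and 9.66 on the CKIα Het arrays, a log2 difference of 1.43 ± 0.23 with an adjusted p of 0.0972. It is the arrest and feedback target with the smallest p, and its window is shown for the p53 response element decamer consensus, in capitals, at chr11:40755237-40755536 on the minus strand of GRCm38.p6.
Ccng1: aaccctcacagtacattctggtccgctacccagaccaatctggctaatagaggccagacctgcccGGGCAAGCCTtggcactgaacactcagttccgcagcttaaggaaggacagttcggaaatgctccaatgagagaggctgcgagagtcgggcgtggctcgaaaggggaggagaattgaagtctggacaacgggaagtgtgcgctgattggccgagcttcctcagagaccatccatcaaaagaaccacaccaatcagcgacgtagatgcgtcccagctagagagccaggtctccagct
The decamer is searched by its consensus on both strands. It was found in 4 of the 12 arrest and feedback genes with a window (Ccng1, Gtse1, Mdm2 and Ppm1d). It was also found in 2 of 9 cell death genes (Aen and Ei24) and in 3 of 11 stress and repair genes (Ckap2, Polk and Sesn1). Of all windows, 8.36% held it. These matches describe the letters only, and binding of p53 was not tested.

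Psrc1, a spindle protein gene, read 6.08 and 6.82 on the CKIα KO arrays, against 5.25 and 4.94 on the CKIα Het arrays. Phlda3, which restrains Akt, read 5.96 and 6.93 on the CKIα KO arrays, against 5.19 and 5.18 on the CKIα Het arrays. Both were apart between groups, with adjusted p of 0.215 and 0.349. Plk2, a stress-induced kinase, read 7.23 and 8.62 on the CKIα KO arrays, against 6.67 and 6.62 on the CKIα Het arrays. Mdm4, the p53 inhibitor, read 8.74 and 9.32 on the CKIα KO arrays, against 8.47 and 8.36 on the CKIα Het arrays. Trp53inp1 read 9.54 and 9.95 on the CKIα KO arrays and 9.16 and 9.04 on the CKIα Het arrays. Gtse1, a p53 regulator of the G2 phase, read 5.62 and 6.24 on the CKIα KO arrays and 4.88 and 5.63 on the CKIα Het arrays, so its groups overlapped.

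Among the death genes, the receptor gene Eda2r had the largest difference. It read 4.87 and 6.11 on the CKIα KO arrays, against 3.75 and 3.44 on the CKIα Het arrays, a log2 difference of 1.90 ± 0.38 with an adjusted p of 0.146. Tnfrsf10b, the mouse TRAIL receptor, read 6.78 and 6.88 on the CKIα KO arrays, against 6.43 and 6.30 on the CKIα Het arrays. Aen, an apoptosis-linked nuclease, read 6.26 and 6.74 on the CKIα KO arrays, against 5.81 and 5.96 on the CKIα Het arrays. Fas, the classical death receptor, was not on the higher side, at 7.09 and 6.82 on the CKIα KO arrays and 7.66 and 7.08 on the CKIα Het arrays, and its groups overlapped. In the stress group, Zmat3, an RNA-binding p53 target, read 6.51 and 7.21 on the CKIα KO arrays, against 5.49 and 5.40 on the CKIα Het arrays, with an adjusted p of 0.100. Ephx1, an epoxide hydrolase, read 8.22 and 9.91 on the CKIα KO arrays, against 7.68 and 7.86 on the CKIα Het arrays. Sesn2, a sestrin, read 6.14 and 7.03 on the CKIα KO arrays, against 5.78 and 5.88 on the CKIα Het arrays. Tigar, which slows glycolysis, read 7.07 and 6.96 on the CKIα KO arrays, against 6.27 and 6.46 on the CKIα Het arrays. Ddb2, a damage-binding protein gene, was lower, at 6.04 and 5.76 on the CKIα KO arrays against 6.14 and 6.48 on the CKIα Het arrays.

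**Figure D4:**
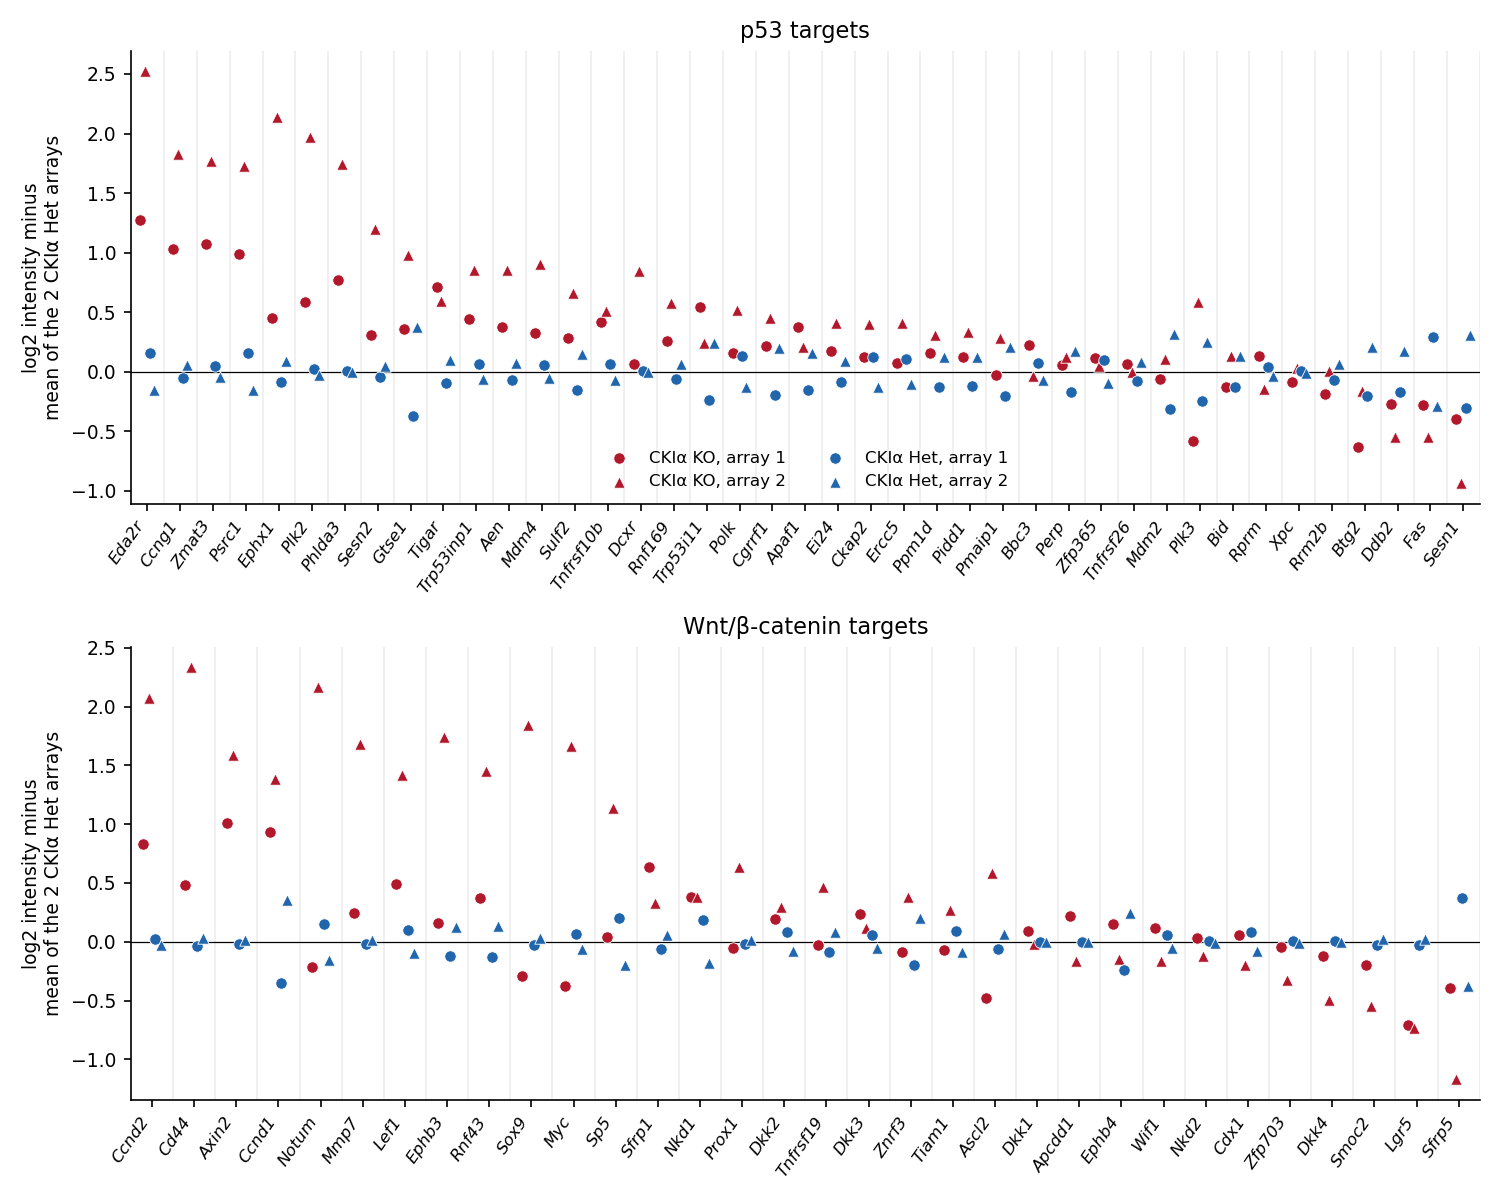
Log2 intensity minus the mean of the 2 CKIα Het arrays for each tested p53 target (upper panel) and Wnt/β-catenin target (lower panel), ordered by group difference; red marks CKIα KO, blue CKIα Het, circles array 1 and triangles array 2. For Eda2r, Ccng1, Ccnd2, Cd44 and Axin2 both red points lie above both blue ones and array 2 is the higher, while for Notum array 1 lies at the level of the blue points.

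Genes of proliferation showed no common direction. Of 22 DNA replication genes tested, 3 (13.6%) were higher and 5 (22.7%) lower with arrays apart, against 22.3% and 16.8% over all genes. The list's median log2 difference was -0.11, at 0.10 between the arrays numbered 1 and -0.21 between those numbered 2. The smallest p was that of Ccne2, cyclin E2, which read 4.59 and 4.54 on the CKIα KO arrays and 5.11 and 5.64 on the CKIα Het arrays. Of 19 mitotic genes, 6 (31.6%) were higher and 2 (10.5%) lower, with a median of 0.02. For DNA damage checkpoint and repair, 0 of 16 tested members had arrays apart in either direction, and the median was 0.01. Of 22 Myc target and ribosome biogenesis genes, 12 (54.5%) were higher and 0 lower with arrays apart, against 22.3% and 16.8% over all genes. The median was 0.37; 0 passed the test in limma and 3, all higher, had an unadjusted p under 0.05. Rrp12, of ribosomal RNA processing, read 7.0 and 7.05 on the CKIα KO arrays, against 6.19 and 6.18 on the CKIα Het arrays. Cad, the enzyme that opens pyrimidine synthesis, read 6.99 and 7.03 on the CKIα KO arrays, against 6.29 and 6.41 on the CKIα Het arrays. Ddx21, a nucleolar helicase, read 8.54 and 8.87 on the CKIα KO arrays, against 7.73 and 7.95 on the CKIα Het arrays. The spread within each group was small beside the difference for Rrp12 and Cad, yet their adjusted p was 0.207 and 0.257.

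Genes of nutrient uptake had more members lower than higher. Of 32 tested genes of disaccharidases and of sugar, peptide and vitamin uptake, 14 (43.8%) were lower and 4 (12.5%) higher with arrays apart, against 16.8% and 22.3% over all genes. The median log2 difference was -0.26, but it was 0.049 between the arrays numbered 1 and -0.64 between those numbered 2. The member with the smallest p was S100g, described above, which lay on the higher side at 2.43 ± 0.63 with an adjusted p of 0.263. Cubn, the receptor for vitamin B12 bound to intrinsic factor, read 9.34 and 8.51 on the CKIα KO arrays, against 11.01 and 11.94 on the CKIα Het arrays, a log2 difference of -2.55 ± 0.71. Slc5a4b, of the sodium-glucose cotransporter family, read 9.43 and 9.06 on the CKIα KO arrays, against 11.06 and 11.23 on the CKIα Het arrays. Its close relative Slc5a4a read 7.39 and 6.46 on the CKIα KO arrays, against 8.05 and 9.20 on the CKIα Het arrays; the probe sets of such close copies may share signal. Slc6a20a, a proline transporter, read 9.32 and 9.29 on the CKIα KO arrays, against 11.12 and 10.95 on the CKIα Het arrays. Slc15a1, the peptide transporter of the brush border, read 11.28 and 11.24 on the CKIα KO arrays, against 11.86 and 12.47 on the CKIα Het arrays. None of these 5 lower genes passed the test, with adjusted p between 0.286 for Cubn and 0.450 for Slc15a1.

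In lipid and bile acid handling, 12 of 26 tested genes were lower and 4 higher with arrays apart (46.2% and 15.4%). Over all genes the shares were 16.8% and 22.3%. The list's median log2 difference was -0.14. Cd36, a fatty acid receptor, read 8.52 and 8.06 on the CKIα KO arrays, against 9.86 and 10.28 on the CKIα Het arrays. Clps, colipase, read 6.01 and 6.11 on the CKIα KO arrays, against 7.15 and 7.04 on the CKIα Het arrays. The bile acid transport genes of this list did not share that side. Slc10a2, which takes up bile acids from the lumen, read 8.88 and 9.01 on the CKIα KO arrays, against 5.91 and 7.38 on the CKIα Het arrays, a log2 difference of 2.30 ± 0.52 with an adjusted p of 0.194. Slc51b, a subunit of the exporter that passes bile acids to the blood, read 9.64 and 9.56 on the CKIα KO arrays, against 8.93 and 8.70 on the CKIα Het arrays. Slc51a, the other subunit, and Fabp6, the bile acid binding protein of the ileum, were added after their values were seen. Slc51a read 8.74 and 8.93 on the CKIα KO arrays and 8.55 and 8.76 on the CKIα Het arrays, so its groups overlapped. Fabp6 read 9.52 and 9.40 on the CKIα KO arrays and 9.10 and 8.84 on the CKIα Het arrays, with an adjusted p of 0.943. The labels used here give no position along the gut for the samples.

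For xenobiotic metabolism, 17 of 27 tested genes (63%) were lower and 0 higher with arrays apart, against 16.8% and 22.3% over all genes. The list's median log2 difference was -0.48. The median was -0.54 between the arrays numbered 1 and -0.48 between those numbered 2. None passed the test, and 4 had an unadjusted p under 0.05, all lower. Ces1d and Ces2a are carboxylesterases. Ces1d read 4.78 and 4.85 on the CKIα KO arrays, against 6.85 and 6.32 on the CKIα Het arrays. Ces2a read 8.80 and 9.40 on the CKIα KO arrays, against 10.35 and 11.06 on the CKIα Het arrays. The glutathione transferase gene Gstm1 read 8.37 and 9.60 on the CKIα KO arrays and 10.22 and 10.16 on the CKIα Het arrays, and Gstm3 read 10.74 and 11.34 on the CKIα KO arrays and 11.98 and 12.02 on the CKIα Het arrays. Ugt2b5 and Cyp2j9 are outside this list and its counts, and are given for the size of their differences. Ugt2b5, a glucuronosyltransferase, read 3.85 and 4.60 on the CKIα KO arrays, against 6.60 and 6.49 on the CKIα Het arrays. Its adjusted p in limma was 0.100. Cyp2j9, a cytochrome P450, read 4.31 and 4.43 on the CKIα KO arrays, against 6.06 and 6.31 on the CKIα Het arrays. Its log2 difference of -1.81 ± 0.30 had an adjusted p of 0.0972.

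Other genes among the most negative differences have varied roles. Gdpd3, a glycerophosphodiesterase, read 5.89 and 5.68 on the CKIα KO arrays, against 9.75 and 7.82 on the CKIα Het arrays, and its log2 difference of -3.00 ± 0.62 was the most negative of the named genes. Adgrd1, an adhesion receptor, read 6.06 and 5.44 on the CKIα KO arrays, against 7.64 and 7.97 on the CKIα Het arrays. Aqp1, a water channel, read 8.28 and 7.83 on the CKIα KO arrays, against 9.53 and 10.47 on the CKIα Het arrays. Vwa1, a matrix protein gene, read 6.57 and 5.50 on the CKIα KO arrays, against 7.65 and 8.28 on the CKIα Het arrays. Iyd, which recovers iodide from tyrosines, read 5.99 and 6.53 on the CKIα KO arrays, against 8.14 and 8.24 on the CKIα Het arrays. Ccl24, an eosinophil-attracting chemokine, read 4.23 and 4.43 on the CKIα KO arrays, against 6.06 and 6.28 on the CKIα Het arrays. None overlapped and none passed the test, with adjusted p from 0.0972 for Adgrd1 to 0.245 for Aqp1, Vwa1 and Iyd.

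The secretory lineages were mostly on the lower side. Of 16 goblet cell markers tested, 11 were lower and 3 higher with arrays apart (68.8% and 18.8%), against 16.8% and 22.3% over all genes. The list's median log2 difference was -0.62. Atoh1, the master regulator of secretory cells, read 8.09 and 8.02 on the CKIα KO arrays, against 8.68 and 8.67 on the CKIα Het arrays. Tff3, a trefoil peptide of mucus, read 11.76 and 11.08 on the CKIα KO arrays, against 12.48 and 12.43 on the CKIα Het arrays. Sytl2, of granule release, read 7.15 and 7.12 on the CKIα KO arrays, against 8.20 and 8.03 on the CKIα Het arrays. Capn9, a gut calpain, read 6.02 and 5.63 on the CKIα KO arrays, against 7.28 and 6.72 on the CKIα Het arrays. Tpsg1, a tryptase, read 6.28 and 5.95 on the CKIα KO arrays and 7.33 and 6.70 on the CKIα Het arrays. Muc4, a membrane mucin, was an exception, at 6.74 and 8.02 on the CKIα KO arrays against 5.32 and 5.33 on the CKIα Het arrays. The summed intensity of the list was 27101 and 20436 on the CKIα KO arrays, against 35299 and 32739 on the CKIα Het arrays.

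Of 25 enteroendocrine markers tested, 15 were lower and 2 higher with arrays apart (60% and 8%), against 16.8% and 22.3% over all genes. The list's median log2 difference was -0.36. Sst, somatostatin, read 7.87 and 6.20 on the CKIα KO arrays, against 9.65 and 8.99 on the CKIα Het arrays, a log2 difference of -2.28 ± 0.47 with an adjusted p of 0.161. Nts, neurotensin, read 7.39 and 6.48 on the CKIα KO arrays, against 8.85 and 8.79 on the CKIα Het arrays. Chga, the granule protein chromogranin A, read 7.31 and 6.84 on the CKIα KO arrays, against 7.98 and 8.19 on the CKIα Het arrays. Neurod1, a transcription factor of these cells, read 4.29 and 3.90 on the CKIα KO arrays, against 4.72 and 5.08 on the CKIα Het arrays. Scg3, a secretogranin, read 3.76 on each CKIα KO array and 4.30 and 4.22 on the CKIα Het arrays. Pcsk1, a prohormone convertase, was higher, at 8.10 and 7.61 on the CKIα KO arrays against 7.04 and 7.17 on the CKIα Het arrays. The list summed to 2843 and 1855 on the CKIα KO arrays, against 4573 and 4107 on the CKIα Het arrays. Of 13 tuft cell markers, 6 (46.2%) were lower and 1 (7.69%) higher, with a median of -0.09. Among them Sh2d6 read 6.06 and 5.81 on the CKIα KO arrays and 6.48 and 6.42 on the CKIα Het arrays.

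Paneth cell and antimicrobial genes lay on both sides. Reg3b, a C-type lectin that epithelial cells release against bacteria, read 12.74 and 12.23 on the CKIα KO arrays, against 10.20 and 10.60 on the CKIα Het arrays. Reg3g, its relative, read 12.64 and 12.30 on the CKIα KO arrays, against 10.54 and 11.21 on the CKIα Het arrays. Reg3a, another member of the family, was on the other side, at 7.81 and 7.19 on the CKIα KO arrays against 10.07 and 8.34 on the CKIα Het arrays. The defensin gene Defa24 read 8.56 and 9.19 on the CKIα KO arrays, against 11.27 and 9.58 on the CKIα Het arrays. Ang4, an antimicrobial ribonuclease, read 5.74 and 5.90 on the CKIα KO arrays, against 7.27 and 6.35 on the CKIα Het arrays. Lyz2, a lysozyme of myeloid cells that is also in the Paneth list, read 6.75 and 7.28 on the CKIα KO arrays, against 8.75 and 8.58 on the CKIα Het arrays, a log2 difference of -1.65 ± 0.32 with an adjusted p of 0.129. Mmp7, the protease that activates defensins, read 8.18 and 9.61 on the CKIα KO arrays, against 7.91 and 7.95 on the CKIα Het arrays. Of 12 tested members, 3 (25%) were higher and 5 (41.7%) lower with arrays apart, against 22.3% and 16.8% over all genes. The list's median was -0.83. Most of the defensin genes listed have no probe set with a single symbol and were not tested.

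Inflammatory and interferon genes did not form 1 pattern. Of 25 inflammatory and senescence-associated secreted factors tested, 6 (24%) were higher and 3 (12%) lower with arrays apart, with a median of 0.05. Over all genes the shares were 22.3% and 16.8%. Il1rn, the interleukin 1 receptor antagonist, read 6.19 and 8.50 on the CKIα KO arrays, against 5.50 and 5.40 on the CKIα Het arrays. Il1b, the cytokine that it opposes, read 4.58 and 3.92 on the CKIα KO arrays, against 5.38 and 5.66 on the CKIα Het arrays. Of 24 interferon response and antigen presentation genes, 8 (33.3%) were higher and 2 (8.33%) lower, with a median of 0.26. Oasl2 read 9.62 and 9.75 on the CKIα KO arrays, against 8.45 and 8.78 on the CKIα Het arrays, and Ifit2 read 4.79 and 6.68 on the CKIα KO arrays, against 4.17 and 4.34 on the CKIα Het arrays. Oas1a and Usp18, both interferon-induced, had log2 differences of 0.83 ± 0.37 and 0.98 ± 0.41. Ido1, a tryptophan-degrading enzyme, read 9.81 and 7.93 on the CKIα KO arrays, against 10.36 and 10.63 on the CKIα Het arrays. In these lists 0 genes passed the test in limma. At an unadjusted p under 0.05 the inflammatory list had 1 higher and 1 lower and the interferon list 4 higher and 1 lower.

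Markers of cells other than epithelium were measured beside these groups. Lymphocyte markers summed to 8686 and 5276 on the CKIα KO arrays and 8532 and 8807 on the CKIα Het arrays. With arrays apart, 2 of 18 (11.1%) were higher and 3 (16.7%) lower, against 22.3% and 16.8% over all genes. In the same list, 11 of the 18 lay above the array median on all 4 arrays. Myeloid markers summed to 672 and 628 on the CKIα KO arrays, against 996 and 962 on the CKIα Het arrays; 2 of 16 were higher and 4 lower, among them Lyz2 and C1qa. C1qa, of macrophages, read 4.89 and 4.33 on the CKIα KO arrays and 5.40 and 5.20 on the CKIα Het arrays, and S100a8 lay below the 25th percentile on all 4 arrays. Fibroblast and smooth muscle markers summed to 671 and 661 on the CKIα KO arrays and 557 and 843 on the CKIα Het arrays, with 4 of 13 higher, 2 lower and Lum below the 25th percentile. Endothelial markers summed to 198 and 195 on the CKIα KO arrays and 193 and 192 on the CKIα Het arrays, and 0 of 10 lay above the array median on all 4 arrays. Of the 2 red cell markers tested, 1 was higher and 1 lower. The part of lymphocytes and myeloid cells in the inflammatory, interferon and lysozyme values was not tested.

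The 2 CKIα KO arrays differed from each other in a set of genes of their own. Of the 349 genes more than 2-fold apart between them, 257 were brighter on array 2 and 92 on array 1, and 40 of them were also more than 2-fold apart between the CKIα Het arrays. Anxa10, an annexin, read 3.92 and 7.81 on CKIα KO arrays 1 and 2, and 3.60 and 3.41 on the CKIα Het arrays. Gulo, of vitamin C synthesis, read 4.56 and 8.73 on the CKIα KO arrays and 4.75 and 4.33 on the CKIα Het arrays. Scd1, a desaturase, read 4.60 and 8.67 on the CKIα KO arrays and 5.06 and 5.16 on the CKIα Het arrays. In these 3 genes CKIα KO array 1 was near the CKIα Het arrays and array 2 was far above. The imprinted RNA Meg3 read 5.09 and 9.37 on the CKIα KO arrays and 4.34 and 4.91 on the CKIα Het arrays. Pla2g2a, a secreted phospholipase of Paneth cells, was instead low on CKIα KO array 1, at 5.48 there and 9.59 on array 2, with 10.58 and 10.23 on the CKIα Het arrays.

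The genes brighter on CKIα KO array 1 included class II antigen presentation genes. H2-Ab1 read 11.17 and 9.12 on the CKIα KO arrays and 10.51 and 11.27 on the CKIα Het arrays. H2-Eb1 read 10.63 and 8.83 on the CKIα KO arrays and 9.77 and 9.96 on the CKIα Het arrays. In both, CKIα KO array 2 was the lowest of the 4. Retnlb, a goblet cell product, read 6.97 and 4.01 on the CKIα KO arrays and 6.60 and 6.98 on the CKIα Het arrays. Plb1, a brush border phospholipase, read 10.65 and 8.58 on the CKIα KO arrays and 11.00 and 11.07 on the CKIα Het arrays. Dnase1 read 8.34 and 6.48 on the CKIα KO arrays and 8.89 and 8.92 on the CKIα Het arrays. The members of each list as a whole leaned the same way in several cases: the median difference of array 2 minus array 1 within CKIα KO was 0.81 for the other Wnt targets and 0.58 for the p53 targets of arrest and feedback, against -0.48 for lymphocyte and -0.36 for enteroendocrine markers. The causes of this spread were not tested.

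**Figure D5:**
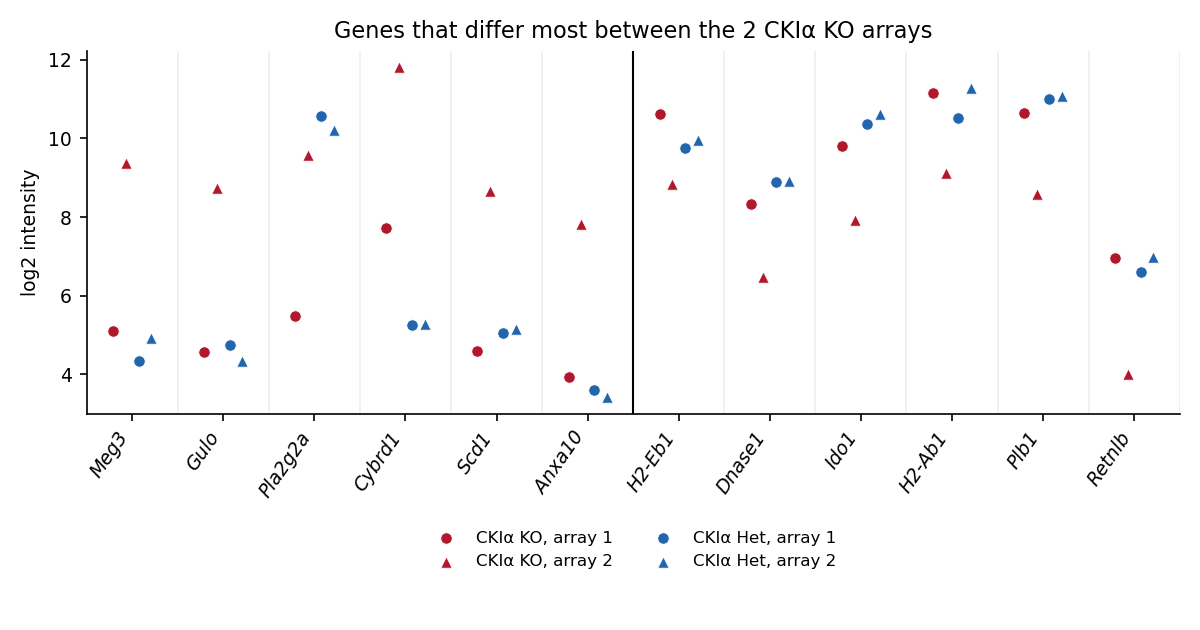
Log2 intensity of the genes most different between the 2 CKIα KO arrays, brighter on array 2 (left of the line) or on array 1 (right of it), on the CKIα KO arrays (red) and the CKIα Het arrays (blue). Anxa10, Gulo and Scd1 have CKIα KO array 1 at or near the CKIα Het arrays and array 2 more than 3 log2 units higher.

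Whether the effect of CKIα loss differs from that in mice without p53 or p21 was tested as a difference between log2 differences. CKIα loss gave 4 called genes with both genes intact (0.0239%), 2981 without p53 (17.8%) and 330 without p21 (1.97%). The effect itself differed between the p53 states in 3 genes (0.0179%), none of them called with both genes intact, and between the p21 states in 0. At an unadjusted p under 0.05 it differed in 2485 genes (14.9%) for p53 and in 1359 (8.13%) for p21. Duox2 had a log2 difference of 3.87 with both genes intact, 2.20 without p53 and 0.70 without p21. The difference without p53 minus that with both genes was -1.67 with an adjusted p of 0.240, and for p21 it was -3.17 with an adjusted p of 0.308. On the CKIα Het/p21 KO arrays Duox2 read 7.97 and 8.32, above both CKIα Het arrays with both genes intact. Duoxa2 had 4.02 with both genes intact, 3.10 without p53 and 1.35 without p21, and neither difference passed, with adjusted p of 0.383 and 0.566.

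No p53 target passed the test of the change over all genes. Over all genes, the log2 difference was higher without p53 than with both genes intact in 43.5%. It was higher in 4 of 13 targets of arrest and feedback, 1 of 13 of cell death and 3 of 15 of stress, repair and metabolism. In the rest it was lower, in 9, 12 and 12 targets in the same order. Ccng1 had a log2 difference of 1.43 with both genes intact and -0.23 without p53, a change of -1.66 with an adjusted p of 0.170. Eda2r had 1.90 with both genes intact and -0.15 without p53, and Zmat3 had 1.42 and 0.27, with adjusted p of the differences of 0.237 and 0.248. Plk2 did not share this, with 1.28 with both genes intact and 2.09 without p53. The log2 difference was higher without p53 in 11 of 14 Wnt feedback inhibitors and 16 of 18 other Wnt targets, and none of these passed the test of the change. Axin2 had 1.30 with both genes intact and 2.35 without p53, and Rnf43 had 0.91 and 2.15, with adjusted p of 0.252 and 0.270. Lgr5 had -0.72 with both genes intact and 0.91 without p53, with an adjusted p of 0.237. Ccnd1 had 1.16 with both genes intact and 1.11 without p53. The comparisons in the 2 p53 states share no arrays.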

How the data were processed

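Total RNA of mouse enterocytes was measured on Affymetrix arrays, with 2 biological replicates per group, per the labels' protocols. The authors made the intensities with Affymetrix Expression Console 1.1 (RMA Sketch) and scaled them to the median, per the labels. Their range in the deposited table was that of log2 values, a base no label gives. Of 35556 probe sets, the 21789 with 1 gene symbol in the platform annotation gave 19938 genes, each by its probe set with the highest mean. A gene was tested where at least 2 of the 12 arrays in the fit exceeded the array's 25th percentile, which left 16721.

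The 12 arrays of the 6 groups, with 2 arrays each, entered a single limma fit (version 3.58.1, R 4.3.3) that had 1 coefficient per group and 6 residual degrees of freedom. Moderated two-sided p-values received a Benjamini-Hochberg adjustment over all genes, and a gene was called under 0.05. The number of arrays limits the precision, and the replicates are taken as independent animals only as far as the labels say so. The remaining array, whose title names a CKIα KO/p53 KO and whose genotype names a CKI KO, entered no comparison. Arrays are described as apart where both of a group lay above, or below, both of the other. The computation was tested on simulated data.

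The genes named are the called ones, the 12 largest differences each way among genes with arrays apart and an unadjusted p under 0.01, up to 6 members of each list by p, all oxidase, Wnt feedback and p53 targets as counts, and the 6 genes most different each way between the CKIα KO arrays. Predicted, Riken, receptor and small RNA gene types were passed over in the choice by size. The comparison and the lists were chosen with earlier results of these data known. Promoter windows came from RefSeq, GRCm38.p6. Alternatives were no filter on dim genes, quantile normalization, an intensity trend, a replicate block, the 4 arrays alone, the mean of a gene's probe sets, and each array left out in turn.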

Additional observations from a re-analysis of the deposited data

Results flagged for a closer look

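In 3 genes the effect of CKIα loss differed between mice with both genes intact and mice without p53, by limma's test of the difference over all genes. Cyp1b1, a cytochrome P450 of steroid and xenobiotic oxidation, had a log2 difference of -0.20 with both genes intact and 2.52 without p53, a change of 2.72 with an adjusted p of 0.0154. It read 3.68 and 3.53 on the CKIα KO arrays and 3.73 and 3.88 on the CKIα Het arrays, against 6.01 and 6.57 on the CKIα KO/p53 KO arrays and 3.88 and 3.64 on the CKIα Het/p53 KO arrays. Dglucy, which breaks down D-glutamate, had 0.15 with both genes intact and -2.30 without p53, a change of -2.45 with an adjusted p of 0.0154. Slc38a4, an amino acid transporter gene, had 0.34 with both genes intact and 3.32 without p53, a change of 2.98 with an adjusted p of 0.0496. None of the 3 passed the test with both genes intact.

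The array outside the groups carried the signal of the called genes above every CKIα Het array. Duoxa2 read 9.45 there and Duox2 9.69, 4930402H24Rik read 8.02 and Zfp37 6.12. These values are given as read, and no genotype is assigned to this array.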

How the results depend on the processing

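For 120 genes named with a group difference, 18 alternatives each gave 2160 values, of which 2055 kept their direction and their side of the threshold, 26 dropped below it, 77 newly passed it and 2 reversed. Most of the 120 genes were not called in the main fit, and for those staying uncalled counts as keeping the side. The 26 drops were all among the values of the 4 called genes. Many of the settings could not change a direction. No filter, the intensity trend, the replicate block and the 4 arrays alone left the CKIα KO and CKIα Het means as they were. So did leaving out an array of another group, where array 1 and array 2 gave the same fit. The reversals were Duox1 and Notum. Duox1 had -0.031 without CKIα KO array 1 (-0.031 to 0.36 over arrays left out). Notum had -0.22 without CKIα KO array 2 (-0.22 to 2.17). Neither gene was called in any setting. The count of genes called higher, 4, became 2 with quantile normalization, 2 with the replicate block and 1 with the 4 arrays alone. Over the arrays left out in turn it ranged from 0 to 57, and the count called lower from 0 to 41. The count for which the effect was higher without p53, 2, became 1 with no filter, 1 with the replicate block and 1 with the mean of probe sets, and ranged from 0 to 142 over arrays left out; the count lower, 1, became 2 with quantile normalization and ranged from 0 to 101. For p21 the counts, 0 and 0, ranged from 0 to 74 higher and from 0 to 34 lower. The causes were not tested. Over these settings Duoxa2 was called in 16 of 18, Duox2 in 15, 4930402H24Rik in 10 and Zfp37 in 5. Arrays apart numbered 3591 higher and 3646 lower after quantile normalization, against 3725 and 2810 as deposited. The replicate numbers follow the Xist and Y-linked pattern in all 6 groups, but no label ties same-numbered arrays together. Deviations of same-numbered arrays correlated between -0.210 and 0.217 over 15 pairs of groups, with 7 below 0, so the replicate block stands as an alternative. The counts of genes more than 2-fold apart between arrays of a group were tried under 3 settings chosen after seeing the data and stayed within 1.5 times.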

Other observations

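Genes of enterocyte identity lay on both sides. Of 16 transcription factors tested, 4 (25%) were higher and 4 (25%) lower on the CKIα KO arrays with arrays apart. Over all genes the shares were 22.3% and 16.8%. The list's median log2 difference was -0.08. Onecut2 read 7.89 and 7.84 on the CKIα KO arrays and 7.42 and 7.0 on the CKIα Het arrays. Elf3, an epithelial factor, read 9.65 on each CKIα KO array and 9.38 and 8.80 on the CKIα Het arrays, and Hnf4a, which maintains enterocyte differentiation, read 10.99 and 10.96 on the CKIα KO arrays and 10.62 and 10.78 on the CKIα Het arrays. Of 18 genes of Notch signalling and secretory fate, 3 (16.7%) were higher and 5 (27.8%) lower, with a median of -0.12.

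Among 19 genes of invasion and epithelial-mesenchymal transition, 4 (21.1%) were higher and 2 (10.5%) lower with arrays apart, with a median of 0.05. Over all genes the shares were 22.3% and 16.8%. Itgb6, an epithelial integrin, read 8.75 and 9.11 on the CKIα KO arrays, against 7.64 and 8.21 on the CKIα Het arrays, a log2 difference of 1.01 ± 0.25 with an adjusted p of 0.253. Mmp14, a membrane-bound protease, read 7.12 and 7.78 on the CKIα KO arrays, against 6.56 and 6.52 on the CKIα Het arrays. Of 7 gasdermin genes tested, 3 (42.9%) were higher and 0 lower, with a median of 0.00.

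On the array outside the groups, Akr1b8 read 9.39 and Nox1 8.69, while Cyp1b1 read 3.81, Dglucy 8.32 and Slc38a4 3.76.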
